A study of Mus musculus with 9 samples.

Results

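The Slc25 genes encode the mitochondrial carrier family, and their RNA was followed here in mouse liver under loss and return of thyroid hormone. Members were genes whose symbol was Slc25a followed by a number in both deposited count tables. The choice went by name among the genes listed. Listing itself depended on counts, since no gene of the MMI and MMI+T3 table had a summed count under 10. The 42 members reported here were among 18081 genes listed in either table. The filter on low counts left 40 of them to be tested, and Slc25a2 and Slc25a31 fell below it.

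Most SLC25 proteins sit in the inner mitochondrial membrane, where each moves or exchanges a restricted set of metabolites, nucleotides, cofactors or ions between the cytosol and the matrix. In the liver these exchanges feed fatty acid oxidation (acylcarnitines), fat synthesis (citrate), the urea cycle (ornithine, aspartate), ATP export (adenine nucleotides) and haem synthesis (iron, glycine). Thyroid hormone acts mainly through nuclear receptors that bind DNA and change transcription, and it is known for raising the oxidative activity of the liver.

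Livers of male C57BL/6 mice were sequenced in 3 groups of 3 libraries. MMI+T3 mice were hypothyroid mice given 5 daily injections of triiodothyronine (T3), the active hormone, and were killed 24 h after the last one. MMI mice had received drinking water with 0.1% methimazole, a blocker of hormone synthesis, and sodium perchlorate, which stops iodide uptake, for 20 days. The MMI+T3 mice had received this water too. CT mice were untreated C57BL/6J controls aged about 8 to 12 weeks. Nothing in the sources used here states that the 3 libraries of a group are 3 mice, and the p-values therefore cover the variation among libraries, whatever its origin. The CT counts were deposited in a table of their own, and effects of how that table was made cannot be told apart from those of the treatments in comparisons with CT.

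Library totals ran between 17256776 and 22599227 counts. Genes of the mitochondrial genome took 4.99% of the counts in MMI replicate 3, which stood apart from the 3.29% to 3.76% of the other 8 libraries. Dio1, a deiodinase gene known to respond to thyroid hormone, had 858 to 947 CPM (counts scaled to a common library total) in MMI+T3 livers, 3.13 to 4.67 CPM in MMI livers and 44.1 to 80.6 CPM in CT livers. The 9 markers of Kupffer cells and macrophages summed to 241 to 485 CPM in MMI+T3 livers, 79.4 to 110 CPM in MMI livers and 104 to 129 CPM in CT livers, and all 9 were higher in MMI+T3 than in MMI livers. Of 7 hepatocyte markers, each detected in every group, Alb and Ttr fell in MMI+T3 against MMI livers and the other 5 were not called, with log2 fold changes between 0.08 and 0.35 (median of the 7, 0.15). Against CT, Alb, Ttr and Apoa1 were lower in MMI+T3 livers. The 7 endothelial markers summed to 188 to 204 CPM in MMI+T3 livers, 185 to 231 CPM in MMI livers and 130 to 170 CPM in CT livers, and 4 of the 7 were higher in MMI+T3 than in CT livers, 2 in MMI than in CT livers and none was called in MMI+T3 against MMI. The part of these shifts in the carrier results was not tested. In bulk tissue, fewer cells of a type and less RNA per cell cannot be told apart.

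After T3, 18 of the 40 tested members changed in MMI+T3 against MMI livers: 11 rose and 7 fell. A change was called at an adjusted p under 0.05 (edgeR quasi-likelihood F test, Benjamini-Hochberg adjustment over all genes tested), and all adjusted p-values given here come from that test. The members called were 45.0% of those tested, beside 17.0% of the 14109 genes tested in this comparison (9.83% higher and 7.18% lower). The median log2 fold change of the members was 0.15, against -0.02 over all genes. The 22 members that were not called had log2 fold changes between -0.73 and 1.09, and 5 of them had an unadjusted p under 0.05. In MMI against CT livers 3 members were called, 1 higher (Slc25a37) and 2 lower (Slc25a45 and Slc25a21), which made 7.5% of those tested beside 5.29% of all 13925 genes (2.48% higher and 2.80% lower). In MMI+T3 against CT livers 17 members were called, 9 higher and 8 lower, or 42.5% beside 25.6% of all 13847 genes (13.3% higher and 12.3% lower). The comparisons share libraries, so their counts are not independent of each other.

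**Figure D1:**
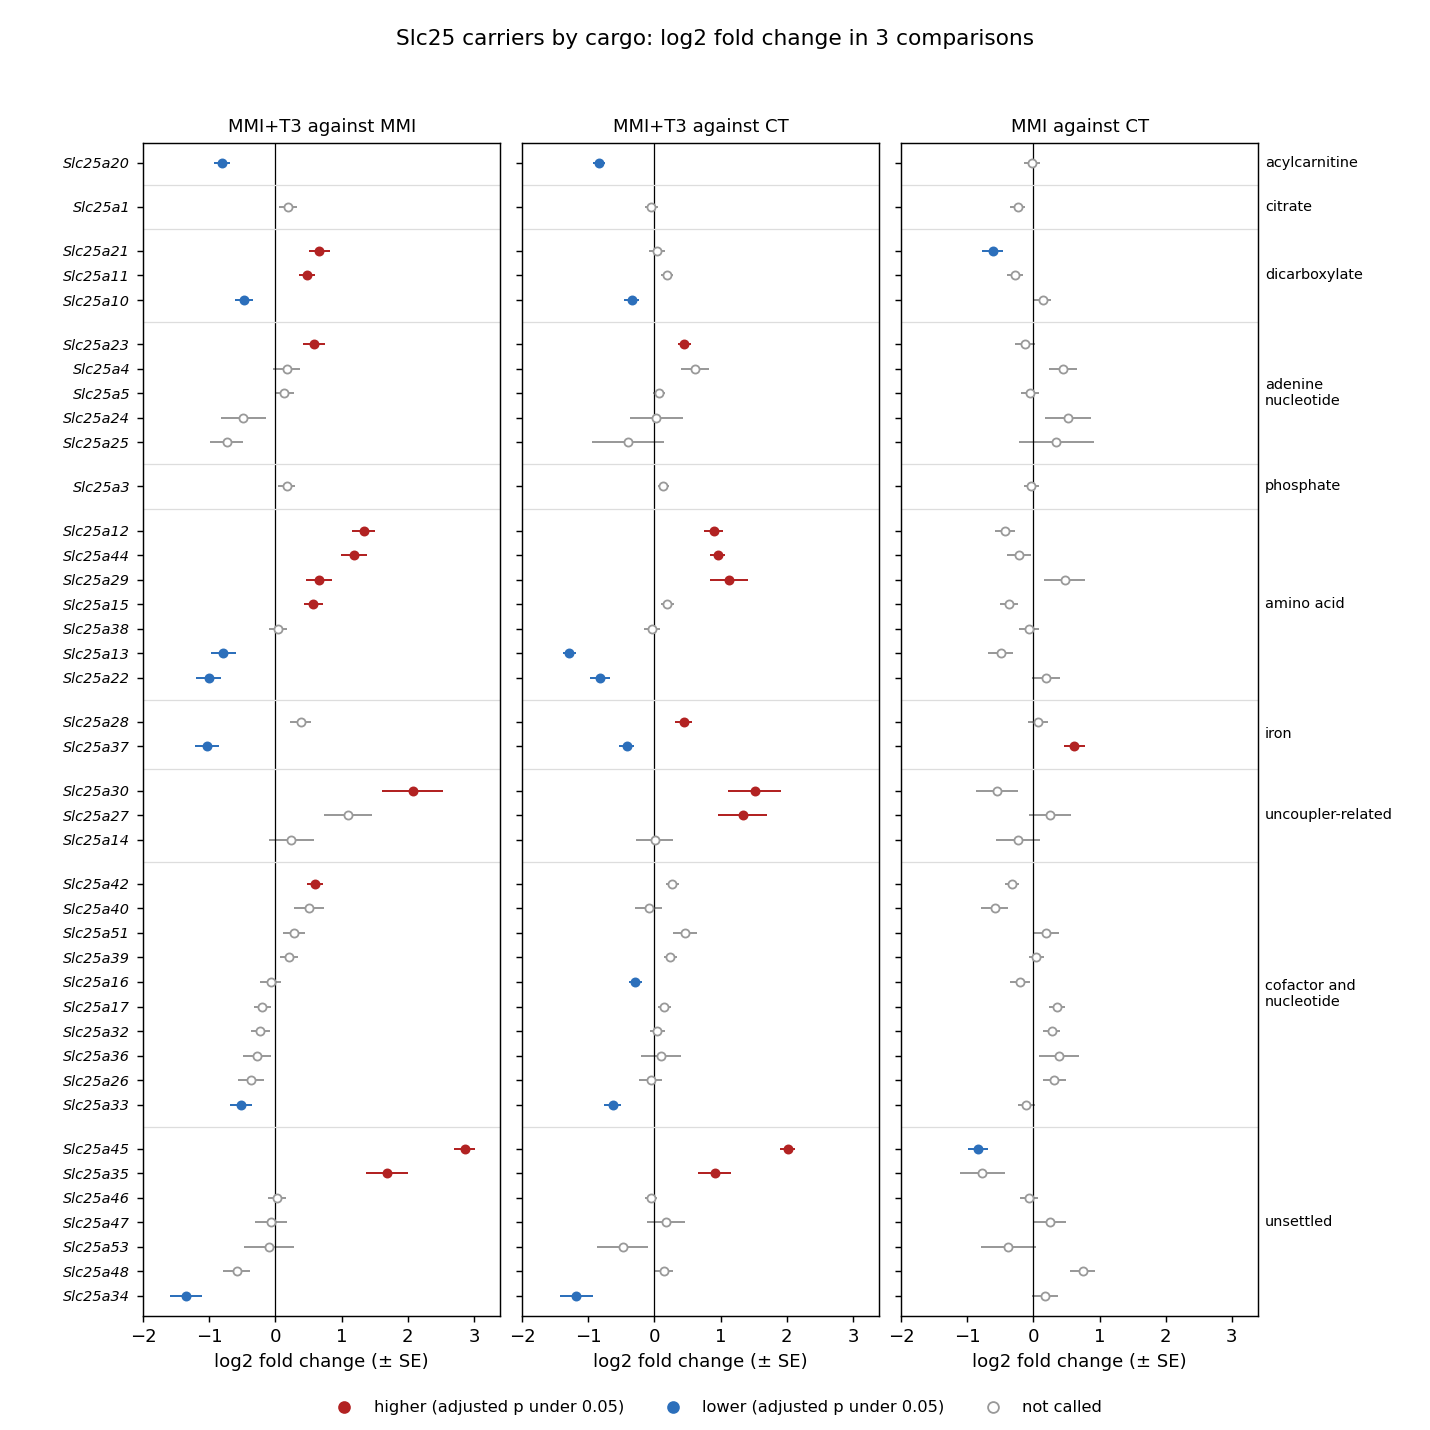
Log2 fold change of the 40 tested Slc25 members (x axis, with standard error), grouped by cargo and shown for MMI+T3 against MMI, MMI+T3 against CT and MMI against CT. Filled points passed an adjusted p of 0.05, red for higher and blue for lower; Slc25a45 lies farthest to the right after T3 (2.86), and only 3 points are filled in MMI against CT.

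Summed over the 42 members, level per exon length was 1419, 1475 and 1535 CPM per kilobase in MMI+T3 livers, 1346, 1412 and 1290 in MMI livers and 1305, 1376 and 1497 in CT livers. The MMI+T3 libraries lay above the MMI libraries by a narrow margin (1419 against 1412 at the closest), and overlapped with CT. In the sum of CPM without regard to length the 2 groups overlapped, with 4884 in MMI+T3 replicate 1 and 4967 in MMI replicate 2. Per kilobase, the most abundant member in each group was Slc25a5, the main ADP/ATP carrier outside muscle, at 291 ± 9.78 CPM per kilobase in MMI+T3, 262 ± 36.7 in MMI and 275 ± 14.0 in CT livers (SD, n = 3). It was followed in each group by Slc25a39, a glutathione carrier, by Slc25a1, the citrate carrier, and by Slc25a47, a liver-enriched member. Slc25a1 and Slc25a47 lay closer together than the larger of their SDs in MMI+T3 livers, with 143 ± 13.7 and 110 ± 35.8 CPM per kilobase, and in MMI livers, with 123 ± 5.68 and 114 ± 17.0, but not in CT livers, with 147 ± 4.61 and 96.6 ± 39.6 (SD, n = 3). The largest move in rank was that of Slc25a45, which stood at position 10 in MMI+T3, 26 in MMI and 22 in CT livers. At the low end were Slc25a53 and the untested Slc25a2 and Slc25a31, an ADP/ATP carrier of testis, each at a mean of at most 0.248 CPM per kilobase in every group.

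**Figure D2:**
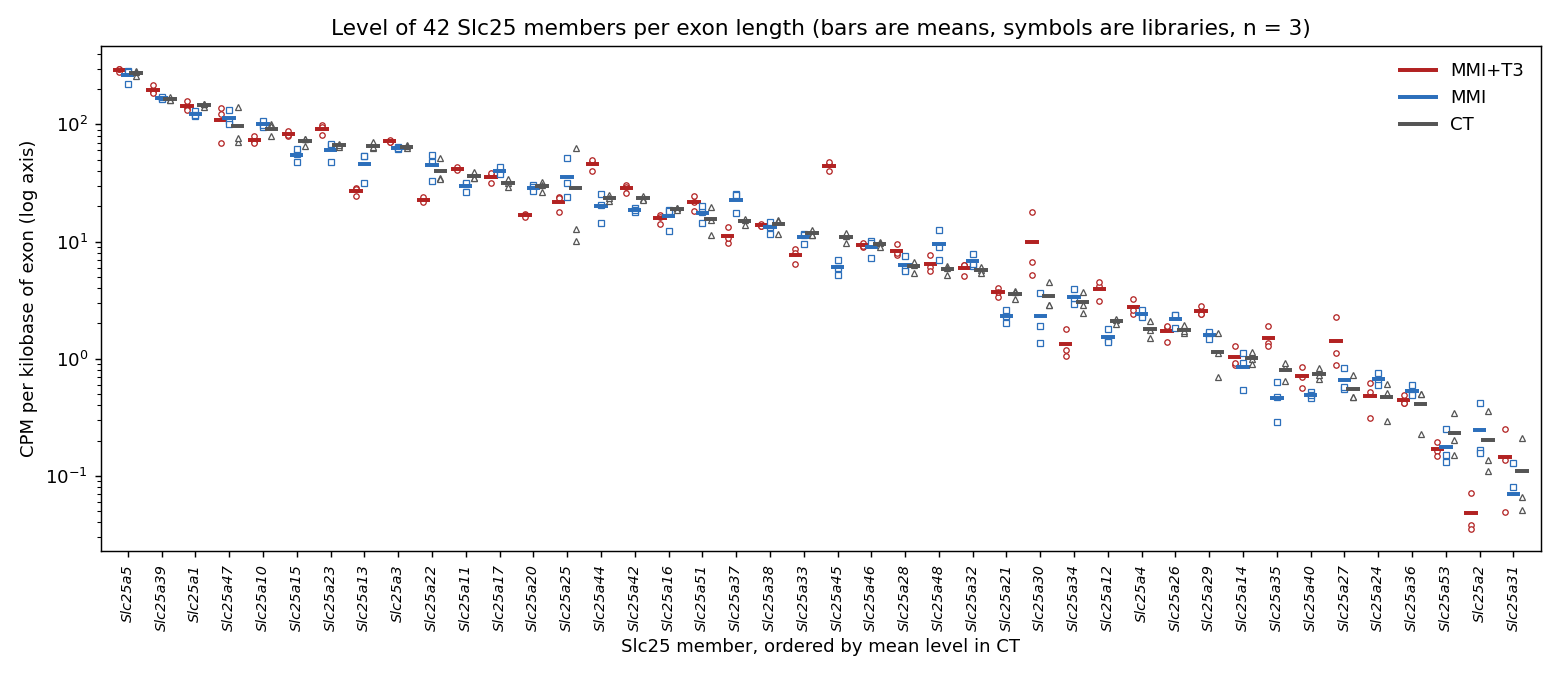
Level of the 42 Slc25 members in CPM per kilobase of exon (log axis), ordered by their mean in CT livers, with bars for group means and symbols for the 3 libraries of each group. Slc25a31 was at 0 in MMI replicate 3, which a log axis cannot show, and Slc25a45 and Slc25a30 stand out as red bars above their neighbours.

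Slc25a20, the carnitine-acylcarnitine carrier that brings long-chain acyl groups into the matrix for oxidation, fell after T3 (chr9:108662088-108684641, plus strand, GRCm38). It had 82.7, 82.1 and 78.1 CPM in MMI+T3 livers, 147, 141 and 132 CPM in MMI livers and 128, 156 and 147 CPM in CT livers. All MMI+T3 libraries lay below every MMI and every CT library, while MMI and CT overlapped. The log2 fold change was -0.81 ± 0.12 against MMI (SE, adjusted p = 8.30e-04) and -0.84 ± 0.10 against CT (adjusted p = 1.67e-04), and MMI against CT gave -0.02 ± 0.12 (adjusted p = 0.947). Leaving out any library kept the change against MMI between -0.84 and -0.76. Among 11 genes of the carnitine shuttle, 5 fell in MMI+T3 against MMI livers and the other 6 were not called, with a median of -0.49. The 5 made 45.5% of the list, beside 17.0% of all genes called. Those that fell were led by Crot, the peroxisomal carnitine octanoyltransferase (-1.88), Crat, carnitine acetyltransferase (-1.83), Acsl1, a long-chain acyl-CoA synthetase (-1.50), and Aldh9a1, an enzyme of carnitine synthesis (-0.92).

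Slc25a1, which exports citrate to the cytosol for fatty acid synthesis, was not called in any comparison. It had 298, 286 and 342 CPM in MMI+T3 livers, 257, 280 and 261 CPM in MMI livers and 306, 324 and 323 CPM in CT livers. The MMI libraries were the lowest, by a narrow margin, and the log2 fold change was 0.20 ± 0.13 in MMI+T3 against MMI (adjusted p = 0.370) and -0.24 ± 0.11 in MMI against CT (adjusted p = 0.290). Of 12 genes of the citrate and pyruvate cycle around this carrier, 4 rose and 1 fell in MMI+T3 against MMI livers. The share called was 41.7%, beside 17.0% of all genes. Me1, the cytosolic malic enzyme, rose by 3.27 on the log2 scale, Cs (citrate synthase) by 0.92 and Acly (ATP citrate lyase) by 0.97, while Idh2, the matrix isocitrate dehydrogenase, fell by 1.48.

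The dicarboxylate carriers moved in opposite directions after T3. All 3 were called in MMI+T3 against MMI livers, 2 higher and 1 lower, beside 17.0% of all genes called. Slc25a10, which exchanges malate or succinate for phosphate, had 244, 238 and 275 CPM in MMI+T3 livers, 328, 344 and 369 CPM in MMI livers and 273, 347 and 336 CPM in CT livers. It was lower in every MMI+T3 than in every MMI library and overlapped with CT, with log2 fold changes of -0.48 ± 0.14 (adjusted p = 0.0339) against MMI and -0.35 ± 0.11 (adjusted p = 0.0469) against CT. Slc25a11, the oxoglutarate-malate carrier of the malate-aspartate shuttle, had 87.6, 92.1 and 86.7 CPM in MMI+T3 livers, 65.8, 67.4 and 56.0 CPM in MMI livers and 74.3, 82.9 and 74.2 CPM in CT livers. The 3 groups did not overlap, and the carrier was called only against MMI (0.48 ± 0.12, adjusted p = 0.0225), with 0.19 ± 0.09 against CT (adjusted p = 0.138). Slc25a21, a carrier of oxodicarboxylates from lysine and tryptophan breakdown, had 16.5, 19.5 and 18.2 CPM in MMI+T3 livers, 11.2, 12.6 and 9.87 CPM in MMI livers and 15.6, 18.5 and 18.2 CPM in CT livers. Its MMI libraries were below all others, and it rose by 0.67 ± 0.15 after T3 (adjusted p = 0.0129) and fell by 0.62 ± 0.15 in MMI against CT (adjusted p = 0.0428). In MMI+T3 against CT its difference was 0.04 ± 0.12 (adjusted p = 0.833).

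The call of Slc25a10 against MMI was lost without MMI+T3 replicate 1 or 2 or MMI replicate 1 or 2 (adjusted p between 0.0609 and 0.150), and against CT without MMI+T3 replicate 1 or 2 or CT replicate 2 or 3 (0.120 to 0.186). For Slc25a11 it was lost without any one of the MMI+T3 libraries or MMI replicate 1 (0.0511 to 0.0974). For Slc25a21 it was lost without MMI+T3 replicate 2 after T3 (0.0592), and without MMI replicate 1 or 3 or any one of the CT libraries in MMI against CT (0.0603 to 0.185). Exons of Slc25a10, Slc25a11 and Slc25a21 overlap genes on the other strand (Gm11788, Rnf167 and Pax9), and the strand setting of the counting was not given in the sources used here, so their counts are uncertain to that extent.

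Of the adenine nucleotide carriers, Slc25a23 was the member called, or 20.0% of those tested in MMI+T3 against MMI beside 17.0% of all genes. It exchanges ATP-Mg for phosphate under control of cytosolic calcium, and had 525, 505 and 431 CPM in MMI+T3 livers, 351, 360 and 252 CPM in MMI livers and 364, 342 and 353 CPM in CT livers. All MMI+T3 libraries lay above the other 6, with a rise of 0.58 ± 0.16 against MMI (adjusted p = 0.0331) and 0.45 ± 0.10 against CT (adjusted p = 0.00783). Without MMI+T3 replicate 1 or 2 or MMI replicate 1 the call against MMI was lost (adjusted p between 0.0607 and 0.124). Its paralog Slc25a25 had 189, 186 and 139 CPM in MMI+T3 livers, 189, 404 and 251 CPM in MMI livers and 79.9, 99.7 and 493 CPM in CT livers. CT replicate 3 was far above the other CT libraries and MMI replicate 2 above the other MMI libraries. Slc25a25 was not called in MMI+T3 against MMI (-0.73 ± 0.25, adjusted p = 0.0663), and came to -0.95 without MMI replicate 1 (adjusted p = 0.0212) and to -0.39 without MMI replicate 2 (adjusted p = 0.201). Exons of Slc25a23 and Slc25a25 also overlap genes on the other strand (Gm17168 and Naif1).

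The ADP/ATP carriers and the phosphate carrier, which together supply ATP synthase and export its product, were not called in any comparison. Slc25a5 had 461, 490 and 487 CPM in MMI+T3 livers, 468, 464 and 362 CPM in MMI livers and 427, 472 and 457 CPM in CT livers. The groups overlapped, with 0.14 ± 0.14 in MMI+T3 against MMI (adjusted p = 0.579), and a processed pseudogene, Slc25a5-ps, could share its reads. Slc25a4, the ADP/ATP carrier of heart and muscle, had 5.70, 6.07 and 7.59 CPM in MMI+T3 livers, 5.53, 5.32 and 6.14 CPM in MMI livers and 4.94, 3.51 and 4.10 CPM in CT livers. Its CT libraries were the lowest, and MMI+T3 against CT gave 0.61 ± 0.21 (adjusted p = 0.0561). Per exon length it made 0.931% of the Slc25a4 and Slc25a5 sum in MMI+T3, 0.930% in MMI and 0.648% in CT livers. Slc25a3, the phosphate carrier, had 392, 408 and 392 CPM in MMI+T3 livers, 355, 342 and 349 CPM in MMI livers and 347, 370 and 361 CPM in CT livers. Its MMI+T3 libraries were above all others by a small step of 0.17 ± 0.13 against MMI (adjusted p = 0.409). The 16 genes of ATP synthase and phosphate use had log2 fold changes between -0.26 and 0.46 in MMI+T3 against MMI, with a median of 0.09.

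Amino acid carriers held the highest share of calls among the cargo groups with more than 3 members: 4 of 7 tested rose and 2 fell in MMI+T3 against MMI livers. The share called was 85.7%, beside 17.0% of all genes. The paralogs Slc25a12 and Slc25a13, which export aspartate in exchange for glutamate as part of the malate-aspartate shuttle, went opposite ways. Slc25a12 (aralar, chr2:71271063-71367749, minus strand), the form of brain and muscle, had 30.6, 33.4 and 23 CPM in MMI+T3 livers, 10.6, 13.3 and 10.2 CPM in MMI livers and 15.7, 16.1 and 14.5 CPM in CT livers. Each MMI+T3 library was above all others, and the rise was 1.33 ± 0.18 against MMI (adjusted p = 4.13e-04) and 0.90 ± 0.14 against CT (adjusted p = 0.00122). Slc25a13 (citrin), the liver form whose loss causes citrullinaemia in humans, had 110, 107 and 93.0 CPM in MMI+T3 livers, 203, 206 and 120 CPM in MMI livers and 268, 238 and 244 CPM in CT livers. MMI+T3 libraries were the lowest and CT libraries the highest, with MMI replicate 3 well below the other MMI libraries. The fall was 0.79 ± 0.19 on the log2 scale against MMI (adjusted p = 0.0180) and 1.28 ± 0.10 against CT (adjusted p = 1.21e-05), and MMI against CT gave -0.49 ± 0.19 (adjusted p = 0.180). Against MMI the call of Slc25a13 was lost without MMI+T3 replicate 1 or 3 or MMI replicate 1 or 2 (adjusted p between 0.0517 and 0.0818); against CT it held whichever library was left out.

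Per exon length, Slc25a12 made 12.6% ± 1.28 of the sum of Slc25a12 and Slc25a13 in MMI+T3 livers, 3.36% ± 0.802 in MMI livers and 3.11% ± 0.240 in CT livers (SD, n = 3). Every MMI+T3 library (11.3% to 13.9%) was above every MMI library (2.63% to 4.22%), and citrin remained the more abundant form in all 9 libraries. Of 7 genes of the malate-aspartate and glycerol phosphate shuttles, Gpd2, the mitochondrial glycerol phosphate dehydrogenase (2.59), and Ogdh, a subunit of oxoglutarate dehydrogenase (0.69), rose in MMI+T3 against MMI livers, and the other 5 were not called. The share called was 28.6%, beside 17.0% of all genes.

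**Figure D3:**
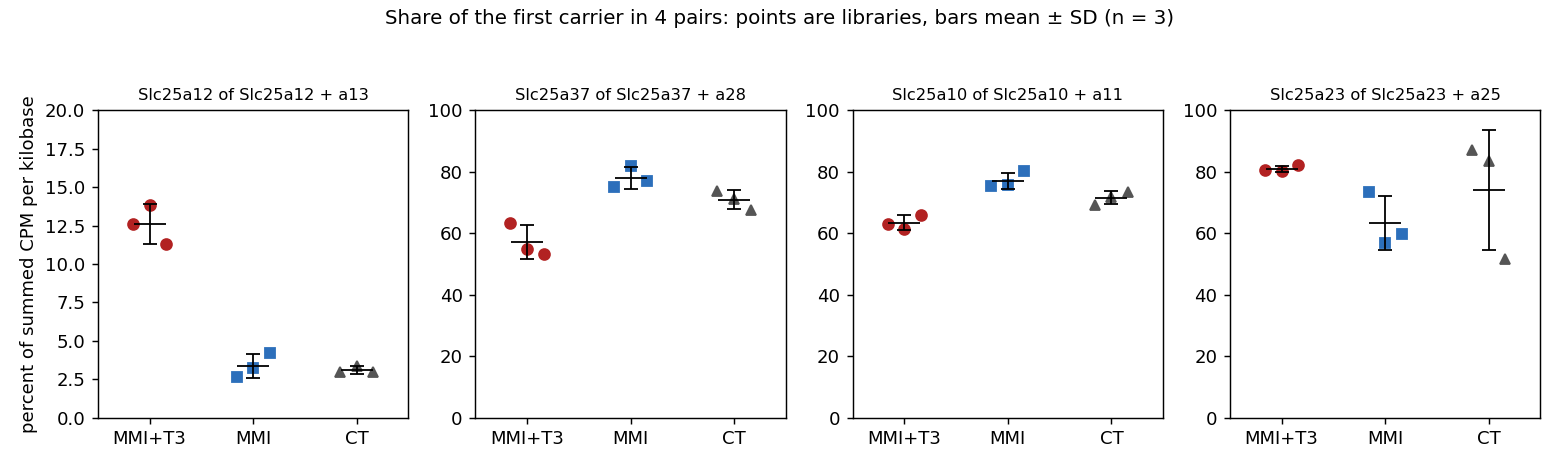
Share of the first carrier in the summed CPM per kilobase of 4 carrier pairs (y axis, percent), with a point for each library and bars for mean and SD of MMI+T3, MMI and CT livers. The share of Slc25a12 sits between 11.3% and 13.9% in MMI+T3 livers and below 5% elsewhere (its axis ends at 20%), whereas Slc25a37 and Slc25a10 have their lowest shares in MMI+T3 livers.

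Slc25a22, a glutamate carrier, had 136, 129 and 144 CPM in MMI+T3 livers, 196, 284 and 331 CPM in MMI livers and 208, 204 and 309 CPM in CT livers. The MMI+T3 libraries were close together and below all others, whereas MMI and CT spread widely. It fell by 1.01 ± 0.19 against MMI (adjusted p = 0.00394) and by 0.83 ± 0.15 against CT (adjusted p = 0.00290). Slc25a44, a carrier of branched-chain amino acids described in brown fat, had 143, 171 and 179 CPM in MMI+T3 livers, 73.0, 90.8 and 51.2 CPM in MMI livers and 89.0, 78.8 and 84.9 CPM in CT livers. No MMI+T3 library overlapped with another group, and the rise was 1.18 ± 0.20 against MMI (adjusted p = 0.00179) and 0.95 ± 0.11 against CT (adjusted p = 1.39e-04).

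Slc25a15, the ornithine carrier of the urea cycle, had 449, 453 and 499 CPM in MMI+T3 livers, 314, 349 and 269 CPM in MMI livers and 423, 371 and 422 CPM in CT livers. The groups did not overlap, with MMI lowest, and the carrier rose by 0.57 ± 0.14 against MMI (adjusted p = 0.0199). Against CT the difference was 0.19 ± 0.10 (adjusted p = 0.180), and MMI against CT gave -0.37 ± 0.13 (adjusted p = 0.157). Its call was lost without any one of the MMI+T3 libraries or MMI replicate 1 (adjusted p between 0.0551 and 0.0685). Slc25a29, a carrier of basic amino acids, rose by 0.66 ± 0.20 against MMI (adjusted p = 0.0488) and by 1.12 ± 0.28 against CT (adjusted p = 0.0157). The call against MMI was lost without any one of the MMI+T3 libraries or MMI replicate 1 or 2 (adjusted p between 0.0926 and 0.149), and that against CT without CT replicate 3 (0.0534). Slc25a38, the glycine carrier of haem synthesis, was between 31.6 and 42.3 CPM in every library and was not called. Among 10 genes of ornithine, glutamate and the urea cycle, Oat (ornithine aminotransferase) fell by 2.85 and Glul (glutamine synthetase) rose by 1.34 in MMI+T3 against MMI livers, and the other 8 were not called. The share called, 20.0%, was near the 17.0% of all genes.

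The mitoferrins import iron for haem and iron-sulfur clusters. Slc25a37 (mitoferrin-1), best known from red cell precursors, had 79.6, 59.1 and 64.7 CPM in MMI+T3 livers, 105, 153 and 152 CPM in MMI livers and 92.3, 93.9 and 83.9 CPM in CT livers. The groups did not overlap, with MMI highest and MMI+T3 lowest. It fell by 1.03 ± 0.18 against MMI (adjusted p = 0.00231) and by 0.42 ± 0.12 against CT (adjusted p = 0.0241), and it rose by 0.62 ± 0.16 in MMI against CT (adjusted p = 0.0459). The call in MMI against CT was lost without MMI replicate 2 or 3 or any one of the CT libraries (adjusted p between 0.0733 and 0.185), and that in MMI+T3 against CT without MMI+T3 replicate 2 or 3 or CT replicate 1 or 2 (0.0522 to 0.0869). Slc25a28 (mitoferrin-2), the form of most tissues, had 28.6, 30.2 and 35.4 CPM in MMI+T3 livers, 21.9, 21.2 and 28.3 CPM in MMI livers and 20.4, 23.5 and 25.1 CPM in CT livers. It stood highest in MMI+T3 livers, barely above MMI replicate 3, and was called against CT (0.44 ± 0.12, adjusted p = 0.0236) but not against MMI (0.38 ± 0.16, adjusted p = 0.135). Without MMI replicate 3 it passed against MMI (0.54, adjusted p = 0.0277), and without MMI+T3 replicate 3 or CT replicate 1 or 2 it was lost against CT (0.0668 to 0.0834).

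Mitoferrin-1 made 57.2% ± 5.46 of the mitoferrin sum per exon length in MMI+T3 livers, 77.9% ± 3.56 in MMI livers and 70.9% ± 3.14 in CT livers (SD, n = 3). The 6 erythroid markers in the tables summed to 124 to 209 CPM in MMI+T3 livers, 126 to 212 CPM in MMI livers and 251 to 315 CPM in CT livers. Among them Alas2, the aminolevulinate synthase gene with which red cell precursors start haem synthesis, averaged 36.1 ± 10.4 CPM in MMI+T3, 69.5 ± 20.1 CPM in MMI and 142 ± 27.3 CPM in CT livers (SD, n = 3). Of the 5 erythroid markers tested in MMI+T3 against MMI, 1 (Alas2) fell and 0 rose. Their log2 fold changes ran from -0.96 to 0.86, with a median of 0.21. In MMI against CT livers 2 of 5 fell, with a range of -1.18 to -0.48. The part of red cells in the mitoferrin values was not tested. Of 14 genes of haem and iron-sulfur synthesis, 4 fell in MMI+T3 against MMI livers: Cpox (-1.10), Uros (-0.86) and Fech (-0.49) of haem synthesis, and Iscu (-0.41), the scaffold of iron-sulfur clusters. The share called was 28.6%, beside 17.0% of all genes. Exons of Slc25a37 overlap Gm27223 and Gm31748 on the other strand.

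Among the carriers related to uncoupling proteins, which dissipate the proton gradient in their founding members, Slc25a30 rose after T3. It had 81.6, 30.8 and 23.5 CPM in MMI+T3 livers, 16.7, 6.27 and 8.71 CPM in MMI livers and 13.1, 20.7 and 13.2 CPM in CT livers. All MMI+T3 libraries were above the rest, but replicate 1 was far above the other two. The rise was 2.07 ± 0.46 against MMI (adjusted p = 0.0105) and 1.52 ± 0.40 against CT (adjusted p = 0.0185). Without MMI+T3 replicate 1 it came to 1.35 against MMI (adjusted p = 0.0264) and 0.78 against CT (adjusted p = 0.0252), and the call against CT was lost without CT replicate 1 or 3 (0.0618 and 0.0730). Slc25a27 (UCP4), known from brain, had 4.39, 3.45 and 8.90 CPM in MMI+T3 livers, 2.18, 3.3 and 2.26 CPM in MMI livers and 2.84, 1.87 and 1.85 CPM in CT livers. MMI+T3 replicate 3 was the highest, and the others lay just above MMI and CT. Slc25a27 was called against CT (1.34 ± 0.37, adjusted p = 0.0234) and not against MMI (1.09 ± 0.37, adjusted p = 0.0662). Without MMI+T3 replicate 3 the difference came to 0.82 against CT (adjusted p = 0.0897), and without CT replicate 2 or 3 that call was also lost (0.0819 and 0.0837). Against MMI it came to 1.35 without MMI+T3 replicate 2 (adjusted p = 0.0284) and to 0.59 without MMI+T3 replicate 3 (adjusted p = 0.278).

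Slc25a14 (UCP5) had 3.03, 2.09 and 2.19 CPM in MMI+T3 livers, 1.27, 2.66 and 2.15 CPM in MMI livers and 2.70, 2.36 and 2.15 CPM in CT livers. The groups overlapped and it was not called (0.24 ± 0.35 against MMI, adjusted p = 0.691). In a list of 17 other transporters of the mitochondrial membranes, Ucp2, an uncoupling protein of many tissues, averaged 74.9 ± 9.27 CPM in MMI+T3 livers and 24.4 ± 5.45 CPM in MMI livers (SD, n = 3), a rise of 1.60. Letm1, a cation exchanger of the inner membrane, rose by 1.65, and the other 15 were not called. The share called was 11.8% of this list, below the 17.0% of all genes in MMI+T3 against MMI.

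Of 10 carriers of cofactors and nucleotides, 1 rose and 1 fell in MMI+T3 against MMI livers, or 20.0% beside 17.0% of all genes. Slc25a42, which brings coenzyme A into the matrix, had 184, 174 and 155 CPM in MMI+T3 livers, 116, 106 and 112 CPM in MMI livers and 139, 135 and 148 CPM in CT livers. The groups did not overlap, with MMI lowest, and the rise was 0.60 ± 0.13 (adjusted p = 0.00735), with 0.27 ± 0.10 against CT (adjusted p = 0.0622). Slc25a33, a pyrimidine nucleotide carrier, fell by 0.52 ± 0.16 against MMI (adjusted p = 0.0493) and by 0.63 ± 0.13 against CT (adjusted p = 0.00577). Against MMI this call was lost without any one of the MMI+T3 libraries or MMI replicate 1 or 3 (adjusted p between 0.0726 and 0.192). Exons of Slc25a33 overlap Gm13068 on the other strand. Slc25a16, linked to coenzyme A, fell by 0.28 ± 0.09 against CT (adjusted p = 0.0467), and its call was lost without any one of the 6 libraries (0.0574 to 0.122). The carriers of glutathione (Slc25a39, Slc25a40), NAD (Slc25a51), S-adenosylmethionine (Slc25a26), folate (Slc25a32) and the peroxisomal Slc25a17 had log2 fold changes between -0.36 and 0.51 in MMI+T3 against MMI and were not called.

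Of 9 genes of coenzyme A synthesis and breakdown, Nudt7, a peroxisomal coenzyme A hydrolase (2.51), and Pank1, a pantothenate kinase (0.62), rose and Vnn1, a pantetheinase, fell by 2.82 in MMI+T3 against MMI livers. Shmt1 (1.33) and Mthfd2 (1.28), enzymes of one-carbon metabolism, rose among 9 tested of their list. These calls made 33.3% of the coenzyme A list and 22.2% of the one-carbon list, beside 17.0% of all genes.

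The most changed member was Slc25a45 (chr19:5877808-5885878, plus strand, GRCm38), a carrier whose cargo is treated here as unsettled. It had 110, 127 and 131 CPM in MMI+T3 livers, 16.5, 14.3 and 19.1 CPM in MMI livers and 26.6, 30.8 and 32.7 CPM in CT livers. The 3 groups were far apart, with MMI lowest. It rose by 2.86 ± 0.16 against MMI (7.27-fold, adjusted p = 9.99e-07) and by 2.02 ± 0.11 against CT (4.05-fold, adjusted p = 1.28e-06), and fell by 0.84 ± 0.15 in MMI against CT (adjusted p = 0.00720). These calls held in all 3 comparisons under each of the 14 alternatives, whichever library was left out. Slc25a34, also of unsettled cargo, had 4.81, 3.16 and 2.82 CPM in MMI+T3 livers, 10.4, 7.90 and 8.77 CPM in MMI livers and 6.57, 7.73 and 9.89 CPM in CT livers. Its MMI+T3 libraries were the lowest, and it fell by 1.35 ± 0.24 against MMI (adjusted p = 0.00297) and by 1.18 ± 0.25 against CT (adjusted p = 0.00583).

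The promoter windows of Slc25a45 and Slc25a34, the members with the largest rise and the largest fall, are shown because both hold the 6 letters AGGTCA to which nuclear receptors, the thyroid hormone receptors among them, are known to bind in pairs. Capitals mark that motif, or its reverse complement, in 250 bases before and 50 bases after the RefSeq start site (GRCm38.p6, 5′ to 3′ on the gene's strand). The window of Slc25a20, the carnitine carrier that fell, is given beside them and has no match on either strand.
Slc25a45, chr19:5877572-5877871, plus strand: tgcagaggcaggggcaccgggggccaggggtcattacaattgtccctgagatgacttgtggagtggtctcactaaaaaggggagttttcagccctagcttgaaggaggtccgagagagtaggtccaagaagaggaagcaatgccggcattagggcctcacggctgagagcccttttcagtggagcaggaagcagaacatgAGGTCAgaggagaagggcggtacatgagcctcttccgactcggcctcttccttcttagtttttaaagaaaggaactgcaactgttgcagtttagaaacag
Slc25a34, chr4:141623785-141624084, minus strand: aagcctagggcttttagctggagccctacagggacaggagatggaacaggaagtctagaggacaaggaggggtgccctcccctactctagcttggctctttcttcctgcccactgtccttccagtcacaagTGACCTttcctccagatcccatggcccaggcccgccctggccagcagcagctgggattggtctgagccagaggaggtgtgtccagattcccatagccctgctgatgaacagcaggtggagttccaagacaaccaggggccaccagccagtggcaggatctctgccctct
Slc25a20, chr9:108661886-108662185, plus strand: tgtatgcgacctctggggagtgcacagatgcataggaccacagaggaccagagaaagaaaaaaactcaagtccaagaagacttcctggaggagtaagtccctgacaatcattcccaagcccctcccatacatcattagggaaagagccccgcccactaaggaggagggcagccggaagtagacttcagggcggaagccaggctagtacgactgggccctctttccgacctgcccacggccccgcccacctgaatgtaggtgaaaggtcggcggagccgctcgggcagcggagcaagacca
The match began 50 bases before the start site in Slc25a45 and 119 bases before it in Slc25a34. On either strand the motif stood in 4 of 43 windows of the 33 members matched by symbol, the others being those of Slc25a39 and Slc25a47, which were not called, and in 16.3% of all 32851 windows of the same length. Its direct repeat after 1 base stood in 13 windows and after 4 bases in 5 windows of all genes, none of them among the members. A match describes letters in this window only.

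Slc25a35, whose cargo is also unsettled, had 5.02, 7.0 and 4.72 CPM in MMI+T3 livers, 1.72, 2.32 and 1.05 CPM in MMI livers and 3.12, 2.36 and 3.35 CPM in CT livers. MMI+T3 was highest and MMI lowest with no overlap, and it rose by 1.69 ± 0.32 against MMI (adjusted p = 0.00404) and by 0.91 ± 0.24 against CT (adjusted p = 0.0207). The call against CT was lost without MMI+T3 replicate 2 or CT replicate 2 (adjusted p of 0.0812 and 0.0776), and its exons overlap Rangrf on the other strand. Slc25a47, a liver-enriched member, had 208, 366 and 411 CPM in MMI+T3 livers, 321, 300 and 397 CPM in MMI livers and 211, 230 and 424 CPM in CT livers. The groups overlapped, with the MMI libraries closer together (SD of 50.7 CPM, against 107 in MMI+T3 and 118 in CT livers). Slc25a47 was not called (-0.06 ± 0.24 against MMI, adjusted p = 0.890). Slc25a48 had 26.1, 20.7 and 18.8 CPM in MMI+T3 livers, 30.6, 42.7 and 23.7 CPM in MMI livers and 17.7, 21 and 20.0 CPM in CT livers. Its MMI libraries were above all CT libraries, with 0.74 ± 0.19 in MMI against CT just outside the threshold (adjusted p = 0.0504) and came to 0.92 without MMI replicate 3 (adjusted p = 0.00708) and to 0.49 without MMI replicate 2 (adjusted p = 0.109). Slc25a46, a protein of the outer membrane, and Slc25a53 were not called in any comparison.

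**Figure D4:**
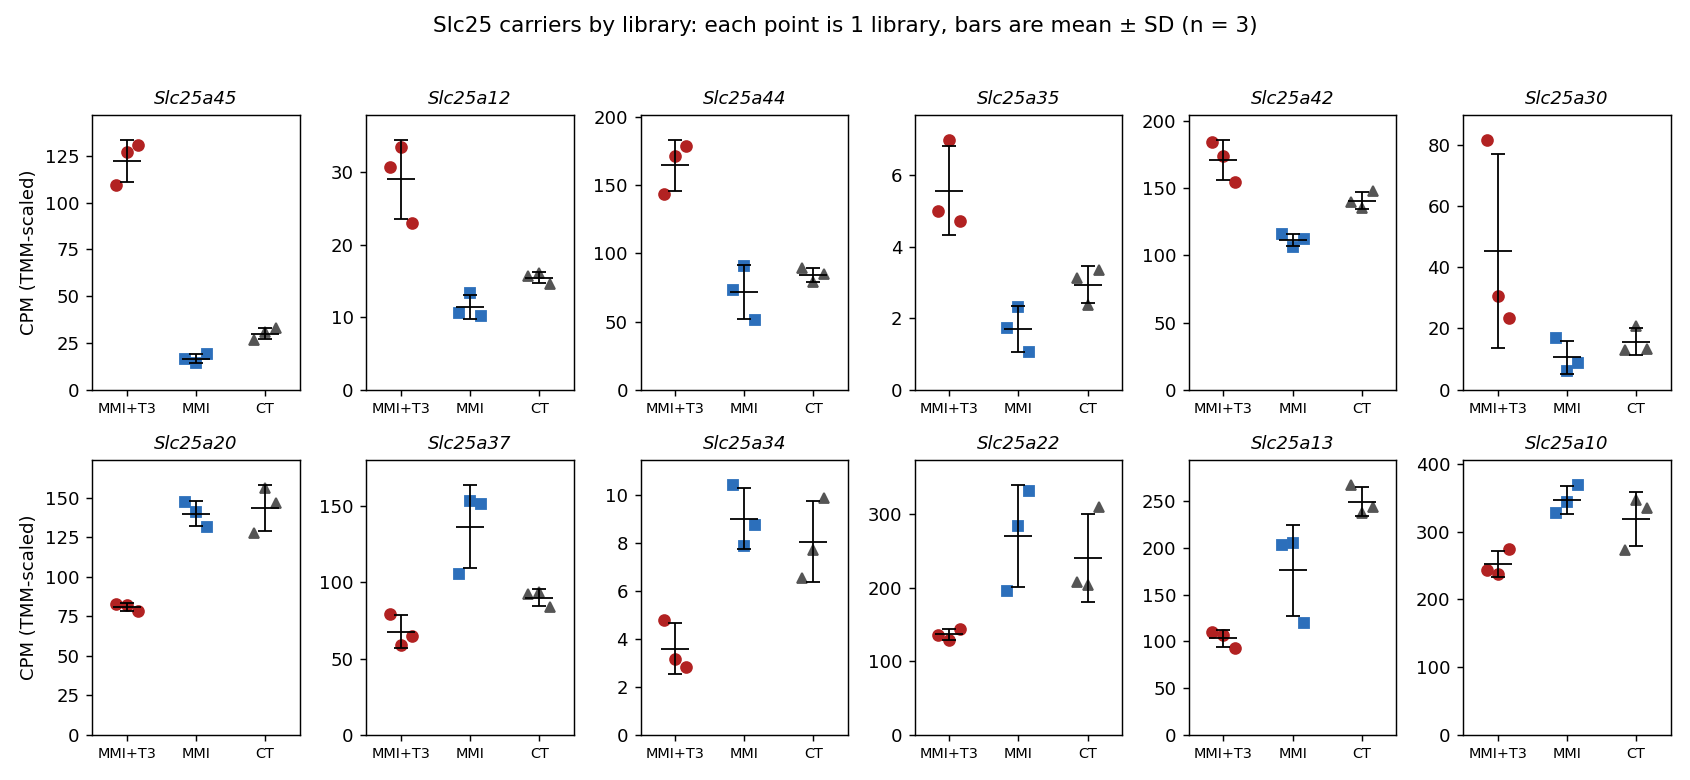
CPM of 12 Slc25 members (y axes from 0, each gene on its own scale) in MMI+T3, MMI and CT livers, with a point for each library and bars for mean and SD (n = 3). The upper row holds members that rose after T3 and the lower row members that fell against MMI; 1 MMI+T3 library of Slc25a30, at 81.6 CPM, lies far above the other two.

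Some members varied as much between libraries of 1 group as others did between groups. In CT livers Slc25a25, Slc25a47, Slc25a22 and Slc25a51 all had their highest value in replicate 3: 493 CPM against 79.9 and 99.7 for Slc25a25, 424 against 211 and 230 for Slc25a47, 309 against 208 and 204 for Slc25a22, and 109 against 84.4 and 62.4 for Slc25a51. By contrast Slc25a3, Slc25a16 and Slc25a23 stayed within 347 to 370, 90.1 to 93.5 and 342 to 364 CPM over the same 3 libraries. MMI replicate 3 also stood apart in some carriers. It had the lowest MMI value of Slc25a5, Slc25a15, Slc25a23 and Slc25a44, and the highest of Slc25a10, Slc25a22 and Slc25a28. What set CT replicate 3 and MMI replicate 3 apart in these carriers was not tested.

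RNA of genes linked to mitochondrial content and to its control was read beside these values, and mitochondrial mass itself was not measured. Of 18 genes of mitochondrial content, Cs rose (0.92) and Lonp1, a matrix protease, fell by 0.45 in MMI+T3 against MMI livers, with a list median of -0.04. That was 11.1% of the list, beside 17.0% of all genes. Among 10 regulators of mitochondrial biogenesis, Ppargc1b, a coactivator (0.96), and Esrra, the estrogen-related receptor alpha (0.59), rose, and the other 8 were not called. The share called, 20.0%, was near the 17.0% of all genes.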

How the data were processed

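The authors deposited unnormalized read counts per gene, with MMI and MMI+T3 libraries together and CT libraries in a separate file. Stranded mRNA libraries were aligned with STAR and counted with HTSeq according to the study's methods, but the processing notes of the submitters list HISAT2 (2.1.0) beside HTSeq (0.6.1p1) and the build GRCm38. Which aligner made the counts, and the strand setting of the counting, were not given in the sources used here. Gene symbols that a spreadsheet had turned into dates (21 in either file) were restored.

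Members were matched by symbol, and coordinates and exon lengths came from GENCODE M21. Each comparison was fitted with edgeR 4.0.16 (R 4.3.3; TMM scaling, filterByExpr with a minimum count of 10, quasi-likelihood F test) on the 6 libraries of its 2 groups and all genes in the tables, and p-values were adjusted by Benjamini-Hochberg over all genes tested. Each standard error given with a log2 fold change is that change, without its sign, over the square root of its F statistic. It is not an estimate given by the fit itself. CPM used TMM-scaled totals of all 9 libraries. The script was tested on simulated data. Library totals were between 17256776 and 22599227 counts, and replicates differed by more than sampling noise. The 14 alternatives per comparison were scaling by DESeq2 size factors or by upper quartiles, no filter or a stricter one (50 counts or more in 3 libraries or more), the tests of DESeq2 1.42.0 and limma-voom (limma 3.58.1), a fit of all 9 libraries, a replicate block, and 6 fits with 1 library left out. Promoter windows came from RefSeq (GRCm38.p6).

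Values per library were given for the 12 members with the smallest adjusted p in MMI+T3 against MMI, those called in MMI against CT and 16 chosen by cargo. Slc25a23, Slc25a27 and Slc25a48, and Slc25a51 in CT livers, were added outside these rules. Other genes are at most 4 per list, by smallest adjusted p. Members, cargo groups and gene lists were chosen with earlier results of these data known. Slc25a18, Slc25a41, Slc25a43 and Slc25a54 were not analysed here. One further member is not reported here and was left out of the counts, sums and figures of members, but not of the fits across all genes.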

Additional observations from a re-analysis of the deposited data

How the results depend on the processing

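With 1 library left out at a time, the number of members called ranged between 11 and 19 in MMI+T3 against MMI (18 with all libraries), between 1 and 2 in MMI against CT (3 with all) and between 11 and 15 in MMI+T3 against CT (17 with all). The low counts of 11 came without MMI+T3 replicate 1 against MMI and without CT replicate 2 against CT, and the count of 1 in MMI against CT came without CT replicate 1 or 2. These fits have fewer libraries. Other settings gave 16 to 20, 2 to 4 and 15 to 18 members. Calls that held in all 14 alternatives were 10 of 18 in MMI+T3 against MMI (Slc25a12, Slc25a20, Slc25a22, Slc25a30, Slc25a34, Slc25a35, Slc25a37, Slc25a42, Slc25a44 and Slc25a45), 1 of 3 in MMI against CT (Slc25a45) and 9 of 17 in MMI+T3 against CT. Beyond left-out libraries, Slc25a29 was lost against MMI with upper quartile scaling, no filter, limma-voom and the fit of 9 libraries, and Slc25a33 with DESeq2 size factors and no filter. In MMI against CT, Slc25a21 was lost with upper quartile scaling and Slc25a37 with limma-voom. In MMI+T3 against CT, Slc25a10, Slc25a16 and Slc25a37 were lost in the fit of 9 libraries, Slc25a10 also with upper quartile scaling and the stricter filter, and Slc25a16 also with no filter. Slc25a25 passed against MMI with DESeq2, Slc25a27 with DESeq2 and the fit of 9 libraries, and Slc25a48 passed in MMI against CT with DESeq2, upper quartile scaling, the stricter filter and the fit of 9 libraries. Slc25a47, never called, changed sign against MMI without MMI+T3 replicate 1 (0.19) and without MMI replicate 3 (0.07), and ranged between -0.26 and 0.19 over the libraries left out.

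Deviations of same-numbered libraries from their group means correlated at 0.06, 0.00 and 0.17 between MMI+T3 and MMI and at -0.07, -0.04 and 0.14 between MMI and CT. Between MMI+T3 and CT they correlated at 0.10, 0.14 and -0.04. With 3 libraries per group these values cannot decide whether the shared replicate numbers pair the libraries. With the replicate number as a block, 17, 4 and 18 members were called in MMI+T3 against MMI, MMI against CT and MMI+T3 against CT. Against the fits without it, Slc25a29 was lost in MMI+T3 against MMI and Slc25a48 passed in MMI against CT. In MMI+T3 against CT the fit without it called 17 members. The rarest tested members that were not called, Slc25a14, Slc25a24 and Slc25a53, had group means of 1.34 to 2.44 CPM and standard errors of 0.28 to 0.42 on the log2 scale; the far more abundant Slc25a25 reached 0.57, and the part of depth in these errors was not tested.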
